A study of Mus musculus with 15 samples.

Results

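Klf11 and Prr16 are 2 of the 323 gene symbols that carry measured values in the deposited expression table of mouse type II alveolar epithelial (AT2) cells, the lung cells that secrete surfactant and renew the alveolar lining. The genes were taken by symbol, and 1 measured row was found for each: AJ459773 (array identifier 17274532, gene 194655) for Klf11 and AK042678 (array identifier 17350552, gene 71373) for Prr16. No other row of the table bears either symbol. Both gene numbers matched protein-coding genes of the same symbol in RefSeq's mouse annotation. They had been picked because both differed from control in an earlier look at these same arrays, so their differences from control are given as a description and carry no p-value.

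The 15 RNA samples, 5 per group, were hybridised to Affymetrix Mouse Gene 2.1 ST arrays and came from mice aged 8 to 12 weeks. The control mice were C57BL/6. AT2 cells of resolving lungs with regulatory T cells (Tregs) present were from Foxp3EGFP mice, whose Tregs fluoresce, and those with Tregs depleted were from Foxp3DTR mice, whose Tregs carry the diphtheria toxin receptor and die when the toxin is given. Both strains are on the C57BL/6 background. Resolving cells were collected 7 days after Escherichia coli lipopolysaccharide (LPS) had been put into the trachea at 3 mg/kg, and all cells were cleared of CD31+ and CD45+ cells and sorted as CD326+ MHCII+ CD104- CD24- T1a-. The treatment text names all 3 strains as receiving LPS and gives no dose of toxin for any group, and injury, strain and allele changed together between control and resolving cells, so that their parts cannot be told apart. One description line calls the profiled cells Tregs, of spleen for 3 Treg-depleted arrays and of lung for the others, which goes against the sample names. Nothing ties an array to a mouse of its own, so the spread between arrays may be partly technical.

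KLF11 is a zinc-finger transcription factor of the Krüppel-like family. It was described as a gene induced early by transforming growth factor beta (TGF-beta), it binds GC-rich promoter elements, and it can silence genes by recruiting the SIN3A corepressor. In several epithelial cell types TGF-beta restrains growth, and in the injured lung it is a central signal of repair and scarring. PRR16, a proline-rich protein also named Largen, was described in human cells as a regulator that raises cell size by promoting the translation of a subset of mRNAs, including mRNAs for mitochondrial proteins.

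The promoter of Klf11 has the GC-rich make-up to which Krüppel-like factors, KLF11 among them, are known to bind. In RefSeq's GRCm38.p6 sequence, 76.8% of the 250 bases before the gene's start are G or C, against a median of 52.4% over 32851 mouse promoter windows of that length. The GC box GGGCGG, searched on both strands, occurs 4 times in it, of which 2 overlap, and 32.7% of all windows hold at least 1. The CCAAT box occurs 2 times (33.8% of windows hold at least 1), and the TATA box, searched as TATAAA, 0 times (12.4%). The GC box nearest the start and both CCAAT boxes are shown because such boxes are common elements of GC-rich promoters. All read on the plus strand, and capitals mark the motif, which is here on the opposite strand. They lie at chr12:24651339-24651368, chr12:24651216-24651245 and chr12:24651246-24651275.
Klf11 GC box: ctccgtggcgccCCGCCCctcccgcgcctc
Klf11 distal CCAAT box: cccgcggcgcccATTGGcccgcttcttgcc
Klf11 proximal CCAAT box: ggcctggcgctgATTGGctggcggcagagg
These letters describe the promoter and say nothing of which factor was bound in these cells.

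Only 324 of the table's 31351 rows hold measurements, and the others lie on straight lines by row number. Over the measured rows the median log2 value of an array was 2.25 to 2.39, and correlations between arrays were 0.951 to 0.984 within groups and 0.929 to 0.984 between groups. The pairing of names with values could not be checked on these rows, because 0 of the 12 AT2 marker genes looked for, Sftpc and Abca3 among them, is measured.

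Klf11 was lower in resolving AT2 cells than in control, with Tregs and without. In control its log2 level was 3.99, 3.86, 3.89, 4.21 and 4.27 in arrays 1 to 5. With Tregs present it was 3.65, 3.49, 3.47, 3.55 and 3.45. With Tregs depleted it was 3.53, 3.72, 3.19, 3.68 and 3.44. The lowest control array therefore stood 0.13 above the highest of the 10 resolving arrays, while the 2 resolving groups overlapped. Klf11 exceeded its array's median in all 15 arrays, by 0.89 to 1.93.

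Group means of Klf11 were 4.04 ± 0.19 in control, 3.52 ± 0.08 with Tregs present and 3.51 ± 0.21 with Tregs depleted (log2 level, SD, n = 5 each). The difference from control was -0.52 with Tregs present and -0.53 with Tregs depleted, which puts the signal at 0.698 and 0.693 of the control signal. These 2 differences share the same 5 control arrays and are not independent of each other. The mean level of Klf11 over the arrays was under 4 and no background level is given here, so the size of the fold is uncertain. In bulk RNA, fewer cells expressing the gene and less of its RNA per cell cannot be told apart. The lowest of the 15 Klf11 values belonged to Treg-depleted array 3, whereas the 5 arrays with Tregs present lay within 3.45 to 3.65.

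**Figure D1:**
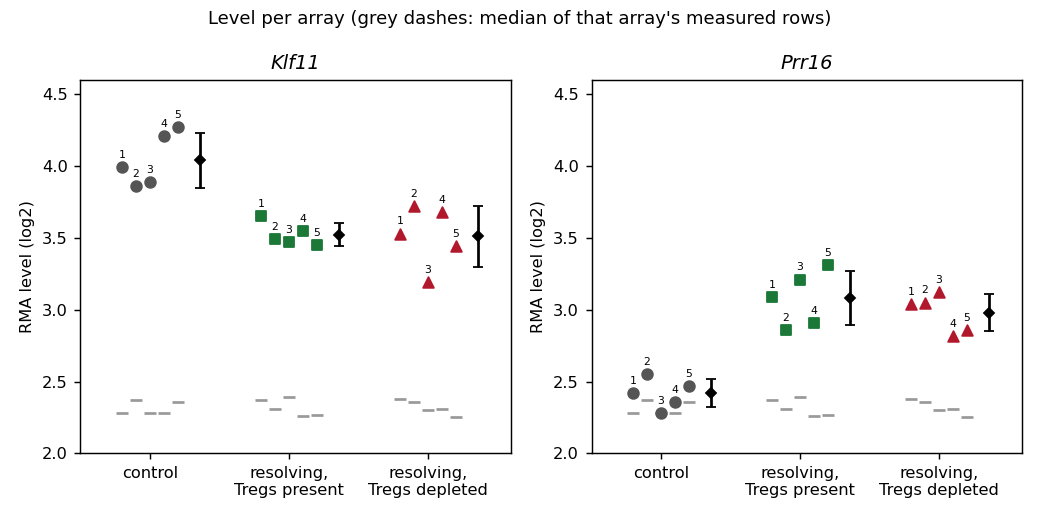
Log2 level (vertical axis) of Klf11 (left) and Prr16 (right) in each array, numbered by replicate, with the group mean and SD as a black diamond and bar, and the median of each array's measured rows as a grey dash. All 10 resolving arrays lie below the 5 controls for Klf11 and above them for Prr16, and the Prr16 controls lie close to the array medians.

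Prr16 differed in the opposite direction and was higher in resolving cells of both kinds. In control its log2 level was 2.42, 2.55, 2.28, 2.36 and 2.47 in arrays 1 to 5. With Tregs present it was 3.09, 2.86, 3.21, 2.91 and 3.31, and with Tregs depleted 3.04, 3.05, 3.12, 2.82 and 2.86. The highest control array stood 0.27 below the lowest resolving array, so that the control and resolving arrays did not overlap, and the 2 resolving groups did.

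Group means of Prr16 were 2.42 ± 0.10 in control, 3.08 ± 0.19 with Tregs present and 2.98 ± 0.13 with Tregs depleted (log2 level, SD, n = 5 each). The difference from control was 0.66 with Tregs present, or 1.58-fold, and 0.56 with Tregs depleted, or 1.48-fold, again over the same control arrays. Control levels of Prr16 exceeded the array's own median by 0.00 to 0.19 only, whereas resolving levels exceeded it by 0.51 to 1.05. No background level is given here, so neither the control level nor the resolving levels are shown to be above background. The control level is the closer to the array medians, and the size of the fold is uncertain for these reasons.

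Both genes passed the filter on low values, which asked that 5 or more arrays exceed their own median, and both did so in all 5 arrays of every group. Of the 173 genes that passed, limma called 28 (16.2%) with Tregs present against control at an adjusted p under 0.05, 5 higher (2.89%) and 23 lower (13.3%). With Tregs depleted against control it called 19 (11.0%), 5 higher (2.89%) and 14 lower (8.09%). Klf11 lay below and Prr16 above control in both comparisons, which is how they were chosen, so their place in the counts and ranks given here supports nothing further. Groups did not overlap for 19 genes (11.0%) in the first comparison and 18 (10.4%) in the second, both genes included. By size of difference, 4 of the 173 genes lay at least as far above control as Prr16 in each comparison, itself included. For Klf11, 24 genes with Tregs present and 16 with Tregs depleted lay at least as far below control, itself included. The median difference over all tested genes was -0.07 and -0.04.

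The separation of Klf11, but not that of Prr16, depended on how the arrays were scaled. After quantile normalization of the measured rows, Klf11 had group means of 3.87 ± 0.19 in control, 3.66 ± 0.13 with Tregs present and 3.49 ± 0.24 with Tregs depleted (n = 5 each). Its difference from control shrank from -0.52 to -0.22 with Tregs present and from -0.53 to -0.39 with Tregs depleted. Of the 10 resolving arrays 7, not 10, then lay below every control array. Prr16 differed from control by 0.72 and 0.58 after the same step, and all 10 resolving arrays stayed above every control. Centring each array on its median left Klf11 at -0.52 and -0.54 and Prr16 at 0.65 and 0.55. Quantile normalization over so few rows forces all arrays to the same distribution of values.

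**Figure D2:**
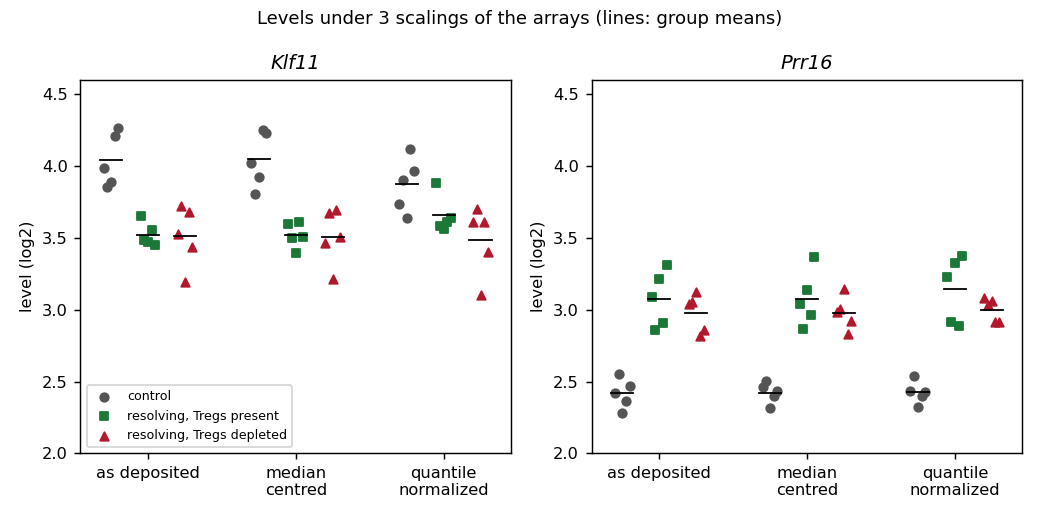
Log2 level (vertical axis) of Klf11 (left) and Prr16 (right) in each array as deposited, after centring on array medians and after quantile normalization of the measured rows, with horizontal lines at group means. Klf11 in control overlaps with both resolving groups after quantile normalization, while Prr16 in control stays below all resolving arrays under the 3 scalings.

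Between the resolving groups, Treg status changed together with the Foxp3 allele and with any toxin given, so these cannot be told apart. The difference between these groups is the one on which the genes had not been picked. A gene picked for differing from the same controls in the same direction in both resolving groups tends by arithmetic to differ little between them. The mean of Klf11 was 3.51 ± 0.21 in Treg-depleted and 3.52 ± 0.08 in Treg-present arrays (n = 5 each), and the difference of -0.01 (95% interval -0.28 to 0.26) did not pass the test (limma, Benjamini-Hochberg adjusted p = 0.999). As a fold this is 0.993, with an interval from 0.824 to 1.20. Of the 5 Treg-depleted arrays, 2 lay above and 2 below all arrays with Tregs present. The sign of so small a difference turned when single arrays were left out, with values from -0.0631 to 0.0698. After quantile normalization of the measured rows it was -0.17 (95% interval -0.46 to 0.12, limma adjusted p = 0.788), with 0 Treg-depleted arrays above and 2 below all arrays with Tregs present.

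Prr16 was 2.98 ± 0.13 with Tregs depleted and 3.08 ± 0.19 with Tregs present. The difference of -0.10 (95% interval -0.32 to 0.13) did not pass either (limma, adjusted p = 0.885). As a fold it is 0.936. It was negative whichever resolving array was left out, from -0.15 to -0.0370, while leaving out a control array could not change it. After quantile normalization it was -0.14 (limma adjusted p = 0.756). As deposited, 1 Treg-depleted array lay below all arrays with Tregs present. In two-sided exact permutation tests, in which 5 arrays against 5 cannot give a p below 0.00794, p was 0.905 for Klf11 and 0.373 for Prr16. Neither p shows that the groups are alike: for Klf11 and Prr16 the intervals had half-widths of 0.27 and 0.22 on the log2 scale, against a median of 0.28 over the tested genes, and smaller differences could not be resolved. In this comparison limma called 0 of the 173 genes (0%) and an ordinary linear model 0, while 14 had an unadjusted limma p under 0.05 (8.09%). The absolute difference was smaller than that of Klf11 for 16 of the tested genes and smaller than that of Prr16 for 86.

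**Figure D3:**
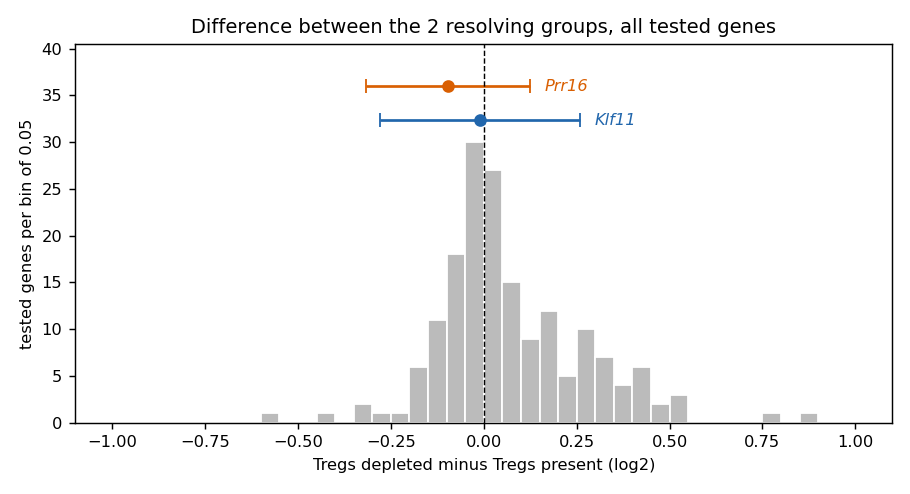
Histogram of the difference between the Treg-depleted and Treg-present groups (horizontal axis, log2; vertical axis, genes per bin of 0.05) for the 173 tested genes, with the differences of Klf11 and Prr16 and their 95% limma intervals drawn above it at arbitrary heights. Both intervals span 0.

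Within the resolving arrays, Klf11 and Prr16 showed no relation that passed a test. Over the 10 resolving arrays Pearson's r was -0.29 (two-sided permutation p = 0.422) and Spearman's rho -0.36 (permutation p = 0.313), and this was the only relation tested, so its adjusted values are the same. Without Treg-depleted arrays 2 and 3, the farthest from the median in Klf11, r was -0.32. With each array centred on its median r was -0.45 (permutation p = 0.191), and after quantile normalization the sign turned (r = 0.24, permutation p = 0.523). The controls were kept out, because the genes had been chosen for opposite differences from them.

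**Figure D4:**
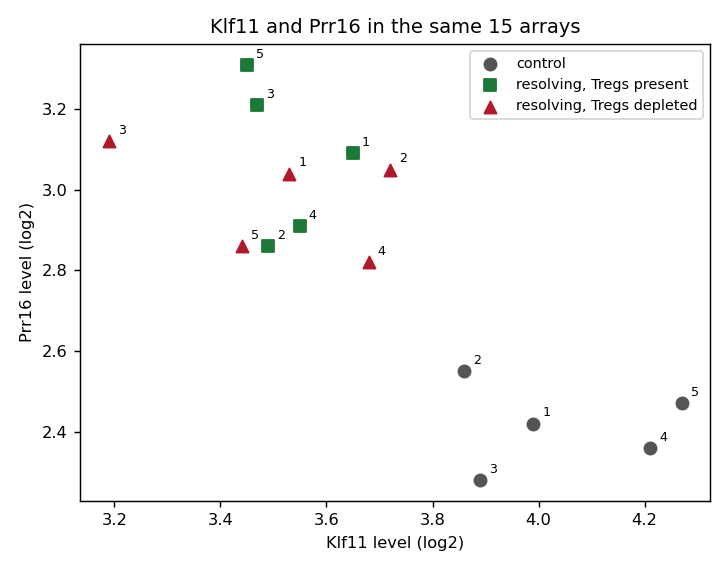
Log2 level of Klf11 (horizontal axis) against that of Prr16 (vertical axis) in the 15 arrays, numbered by replicate within each group. The 5 controls form a separate cloud at high Klf11 and low Prr16, and the 10 resolving arrays of both kinds are mixed.

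Arrays of a group spread less in these genes than in the median tested gene. Both genes were picked for differing from control in these same arrays, and such a choice favours genes of small spread. The pooled SD within groups was 0.17 for Klf11 and 0.15 for Prr16 on the log2 scale, against a median of 0.21 over the 173 tested genes. No array of any group stood far from the other 4 in either gene.

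The genes whose levels followed Klf11 most closely over the 15 arrays were the predicted genes Gm10914 (r = 0.83), Gm19439 (r = 0.82) and Gm20066 (r = 0.80). The lowest correlations were those of D17H6S56E-5 (r = -0.84), of Clu, which encodes the secreted chaperone clusterin (r = -0.83), and of Prr16 itself (r = -0.82). Prr16 followed Clu (r = 0.87), D17H6S56E-5 (r = 0.87) and Thoc7 (r = 0.85), a subunit of the THO complex that couples transcription to mRNA export. It ran most clearly against Gm10914 (r = -0.88), Gm19439 (r = -0.85) and the clone D130062J21Rik (r = -0.85). These values describe 172 other tested genes over arrays that share 3 groups, and the difference between control and resolving cells, by which Klf11 and Prr16 were chosen, enters all of them.

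Deviations from the group means, from which that difference is removed, gave smaller values. For Klf11 they were 0.41 with Gm10914, 0.17 with Gm19439 and 0.26 with Gm20066, and -0.07 with D17H6S56E-5, -0.09 with Clu and -0.23 with Prr16. For Prr16 they were 0.56 with Thoc7, -0.50 with Gm10914, -0.38 with Gm19439 and -0.33 with D130062J21Rik, but 0.10 with Clu and -0.14 with D17H6S56E-5. Over the same 15 arrays the deviations of other tested genes ranged from -0.62 to 0.68 against Klf11 and from -0.81 to 0.75 against Prr16. Thoc7 was 6.03 ± 0.14 in control, 6.38 ± 0.11 with Tregs present and 6.26 ± 0.12 with Tregs depleted (log2 level, SD, n = 5 each). Gm10914 was 5.62 ± 0.63, 4.09 ± 0.46 and 4.23 ± 0.33 in the same order.

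The pathways around both genes are almost absent from the measured rows. Klf11 was the only measured member among 26 Krüppel-like and Sp factors. None of 12 corepressor genes, 25 genes of TGF-beta and Smad signalling, 19 genes of translation and cell size control, 15 Hippo pathway genes, 10 genes of mitochondrial biogenesis or 18 cell cycle genes was measured, so no statement on those pathways can be made here. Among markers of other cells, 2 of 15 leukocyte genes were measured and 0 of 8 alveolar type I, 5 Treg, 6 endothelial, 6 fibroblast and 6 airway genes. Of 10 transitional AT2 genes, 1 was measured, Clu. Its log2 level was 7.63 ± 0.21 in control (7.34 to 7.84), 8.78 ± 0.12 with Tregs present (8.64 to 8.96) and 8.75 ± 0.22 with Tregs depleted (8.53 to 9.10; SD, n = 5 each). Clu thus separated control from resolving arrays in the values as deposited, as Klf11 and Prr16 did. So did 11.0% of the tested genes with Tregs present and 10.4% with Tregs depleted, these genes included. The part of Clu in the differences of Klf11 and Prr16 was not tested.

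The 2 leukocyte genes did not separate the groups as Klf11 and Prr16 did. Lcp2, an adaptor of immune receptor signalling, had a log2 level of 6.61 in control 4 and 7.07 in Treg-depleted 5, against 2.75 to 4.33 in the other 13 arrays. Nckap1l, a leukocyte actin regulator, ranged from 2.09 to 2.36 in control, from 2.30 to 2.64 with Tregs present and from 2.24 to 2.49 with Tregs depleted, close to the array medians. In the 2 arrays with high Lcp2, Klf11 stood at 4.21 and 3.44 and Prr16 at 2.36 and 2.86, inside their groups' ranges. Without these 2 arrays, a choice made after seeing the data, Klf11 differed from control by -0.48 with Tregs present and -0.47 with Tregs depleted, and Prr16 by 0.64 and 0.58.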

How the data were processed

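The authors deposited log2 values made with RMA (background subtraction, normalization between arrays, probe summary); Affymetrix Expression Console, RMA and Partek are named per the submitters' processing notes, and their versions and a genome build were not given in the sources used here. Each array received cDNA from 225 ng of RNA, per the labels' protocols. The workbook and the value table differed by at most 5e-09, and the workbook was used. The first 324 of 31351 rows (1.03%) were kept. In the 31027 others each column continues the least-squares line through its measured rows to within 4.4e-13. No column of values was left unused, and no 2 arrays were identical.

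Where a symbol had several rows, that of highest mean was used. Genes above the array's median in at least 5 arrays were fitted with limma 3.58.1 in R 4.3.3 (1 mean per group over all 15 arrays, eBayes with trend), with Benjamini-Hochberg adjustment over 173 genes and calls under 0.05. The fit was tested on simulated data. Permutation tests of correlations used 100000 resamples. Genes named beside the members were, for each, the 3 tested genes with the highest and the 3 with the lowest r over the arrays, and measured genes of 15 lists. The members and lists were chosen with earlier results of these data known. The number of arrays limits the precision. Alternatives covered scaling, filters, variance models, array weights, a replicate block and leaving out arrays.

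Arrays with equal replicate numbers were treated as unpaired, because no label links them through an animal, litter or day.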

Additional observations from a re-analysis of the deposited data

Results flagged for a closer look

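Of 33 sets of 5 arrays (Klf11, Prr16 and the other genes named, in 3 groups), 2 had a single array standing far off, and chance alone gives about 1 in 20, or 1.65 such sets. Both belong to Lcp2. Control 4 had 6.61 and the remaining controls 2.78 to 3.81, and Treg-depleted 5 had 7.07 and the remaining Treg-depleted arrays 2.75 to 3.64. None of the 6 sets of Klf11 and Prr16 held such an array. The part of these arrays in other results was not tested beyond leaving them out.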

How the results depend on the processing

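Differences of both genes from control kept their sign under all scalings. As deposited, all resolving arrays lay on the same side of every control, so leaving out 1 array could not turn the sign. The value table holds nearly the same values and the replicate block is balanced, so neither could turn it. Only the Klf11 difference with Tregs present under quantile normalization (-0.22) moved by over 1 SD, and the cause was not tested. Leaving out 1 array gave -0.57 to -0.46 and -0.58 to -0.45 for Klf11 and 0.60 to 0.71 and 0.52 to 0.60 for Prr16, with Tregs present and depleted. Between the resolving groups no alternative gave a call for either gene (p or adjusted p 0.788 to 1 for Klf11 and 0.373 to 0.996 for Prr16). The largest shift of the Klf11 difference was to -0.17 after quantile normalization, and it turned positive with array weights (0.0180), without both arrays with high Lcp2 (0.0080), and without Treg-depleted 3 (0.0698), Treg-depleted 5 (0.0080) or Treg-present 1 (0.0213), from -0.0631 to 0.0698 over all arrays left out, and Prr16 gave -0.15 to -0.0370. The cause was not tested. The relation of Klf11 with Prr16 was 0.24 after quantile normalization, -0.45 after centring (permutation p = 0.191) and -0.39 to -0.15 with 1 array left out. Called genes numbered 19 to 31, 15 to 24 and 0 when 1 array was left out, and 12 and 8 at a change of at least 2-fold, the stricter rule. Testing only the 46 genes with a mean over 4, which neither Klf11 nor Prr16 reached, gave 1 call between the resolving groups. A replicate block in the fit gave 25, 20 and 0 calls. Being balanced, it could not change the differences between the resolving groups, -0.0105 for Klf11 and -0.0962 for Prr16. Residual correlations of the 15 same-numbered pairs had a median of 0.0033 (-0.25 to 0.33), and 4 of 15 arrays correlated best with their own number. Signal near the array medians limits the Prr16 control level.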
